A study of Sus scrofa with 2 samples.

Results

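ITM2A, integral membrane protein 2A, was followed across the cell classes of pig skeletal muscle. It is 1 of 21301 features counted in the data, found by its symbol in the feature list. It was chosen with its higher Yorkshire than GDSS level in stromal cells already known from these counts, so that difference is a description with no test and supports nothing further.

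ITM2A codes for a membrane protein that spans the membrane once and carries a BRICHOS domain, a fold found in proteins that are cut during secretion. Its paralogues are ITM2B and ITM2C. The product of ITM2B is cut by furin and by membrane proteases. In other systems ITM2A has been described in cartilage formation, in activated T cells, in the endothelium of brain vessels and in embryonic muscle progenitors, where PAX3 acts upstream of it.

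Single cells of the longissimus dorsi, the long back muscle, were profiled in piglets of 2 breeds, both titled P0: Yorkshire, and the Guangdong small-eared spotted pig, GDSS for short. In both groups 1 g of muscle was taken per piglet, red cells were lysed, and a bead step removed dead cells before capture with the 10x Genomics v2 kit. The labels call the cells intramuscular vascular stem cells, and no treatment or genetic change is listed for either breed. There was 1 library per breed; the sources used here give neither the number of piglets behind each, nor their sex, nor what P0 means.

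The GDSS library held 12286 barcodes with 42093851 unique molecular identifiers (UMIs), and the Yorkshire library 14695 barcodes with 54300953. After filtering, 11050 GDSS cells (median 2929 UMIs) and 13606 Yorkshire cells (median 3059 UMIs) remained, and 47 barcode sequences occurred in both libraries. Cells were placed in classes by marker genes that did not include ITM2A. The label covered a mixture: 73.0% of the GDSS cells and 16.4% of the Yorkshire cells were gated stromal, 2.37% and 12.3% endothelial, and 1.56% and 17.6% satellite cells, while 11.6% and 40.9% met no gate. No test was possible. Breed, animal, tissue preparation and library cannot be told apart, and the 95% intervals given here cover counting error only.

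Levels are given as CPM, the ITM2A UMIs per 1000000 UMIs of all genes in the summed cells of a class. Shares of cells with an ITM2A UMI are given at equal depth, after random thinning of each cell to 1500 UMIs, shallower cells being left out. Because RNA set free from broken cells is captured in every droplet, each level is set beside an estimate of that free RNA. The estimate took how far marker genes foreign to the class were present in it, relative to the whole library, and multiplied this by the ITM2A level of the whole library. It was also made from the 7 endothelial check markers alone (VWF, FLT1, TEK, ROBO4, RAMP2, ERG and SOX18), which no gate used.

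ITM2A was highest in endothelial cells, the lining of blood and lymph vessels, in both libraries. Its level was 557 CPM (516 to 601) in 262 GDSS endothelial cells and 954 CPM (933 to 975) in 1675 Yorkshire endothelial cells. The free RNA estimates for these cells were 3.98 and 15.1 CPM. Endothelial cells held 59.9% of all ITM2A UMIs of the GDSS library and 81.0% of those of the Yorkshire library. A single UMI was not the rule there: 958 of the 1675 Yorkshire cells carried 3 or more, and 1 cell carried 81.

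At equal depth an ITM2A UMI was found in 51.4% (44.4 to 58.4) of 208 GDSS endothelial cells and in 70.6% (68.2 to 72.9) of 1526 Yorkshire endothelial cells. Without thinning the shares were 75.2% and 87.9%. Macrophages, a class in which the gene is not known as a marker, gave the comparison level at the same depth. Their shares were 0.851% (0.103 to 3.04) in GDSS and 0 of 92 cells in Yorkshire, which allows up to 3.26%, with median depths before thinning of 6816 and 8442 UMIs. The endothelial median depths were 2866.5 and 3292 UMIs.

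Set against all other cells of its library, ITM2A was 48.0-fold (42.5 to 54.2) higher in GDSS endothelial cells, where the other cells stood at 11.6 CPM. In Yorkshire it was 22.1-fold (21.1 to 23.3) higher, with the other cells at 43.1 CPM. In GDSS, 20.8% of 10590 genes were at least 1.5-fold and 3.81% at least 4-fold higher in endothelial cells, and 21 genes, ITM2A included, had a ratio as large as that of ITM2A. In Yorkshire, 18.3% of 11240 genes were at least 1.5-fold and 5.46% at least 4-fold higher, and 142 genes had a ratio as large. Endothelial cells were the gate behind this comparison, and ITM2A was not among its markers.

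**Figure D1:**
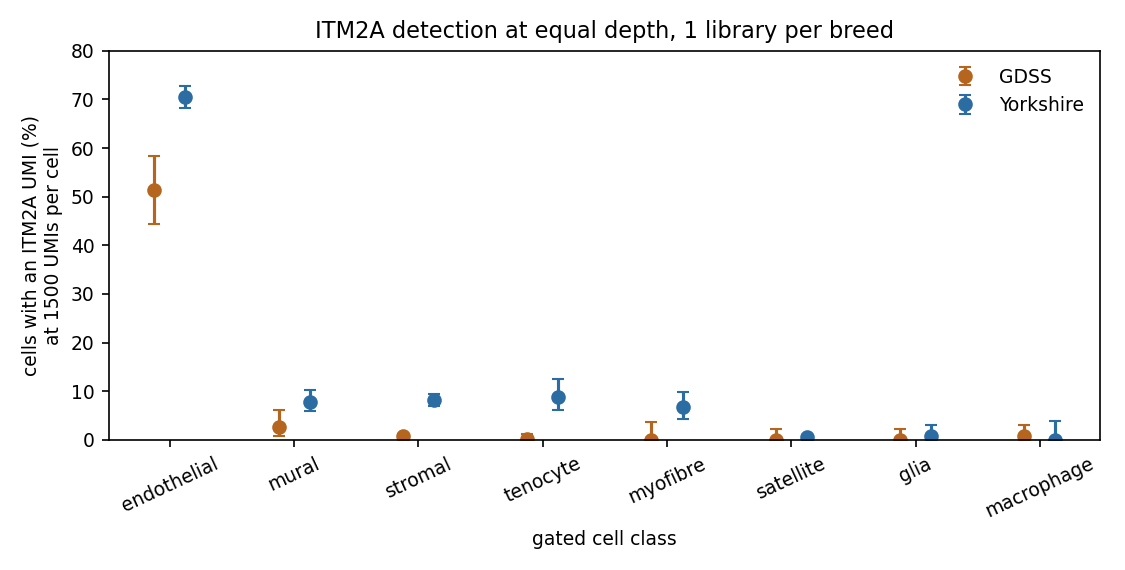
Share of cells (%) with an ITM2A UMI at 1500 UMIs per cell in each gated class, for GDSS and Yorkshire, with 95% Clopper-Pearson intervals. Endothelial cells stand at 51.4% and 70.6%, and no other class passes 8.88% in either library.

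The order of the levels was read class by class, with neighbours called different only where their counting intervals did not overlap. In GDSS the order was endothelial, myofibre at 65.2 CPM and mural at 19.4 CPM, and then stromal, tenocyte, macrophage, satellite and glial cells, whose neighbouring intervals overlapped. In Yorkshire it was endothelial, myofibre at 164 CPM, and then stromal, tenocyte and mural cells with overlapping intervals. Glial, satellite and macrophage cells came last and also overlapped. Endothelial cells thus led in both libraries. The stromal and tenocyte intervals lay below the mural interval in GDSS and overlapped it in Yorkshire.

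**Figure D2:**
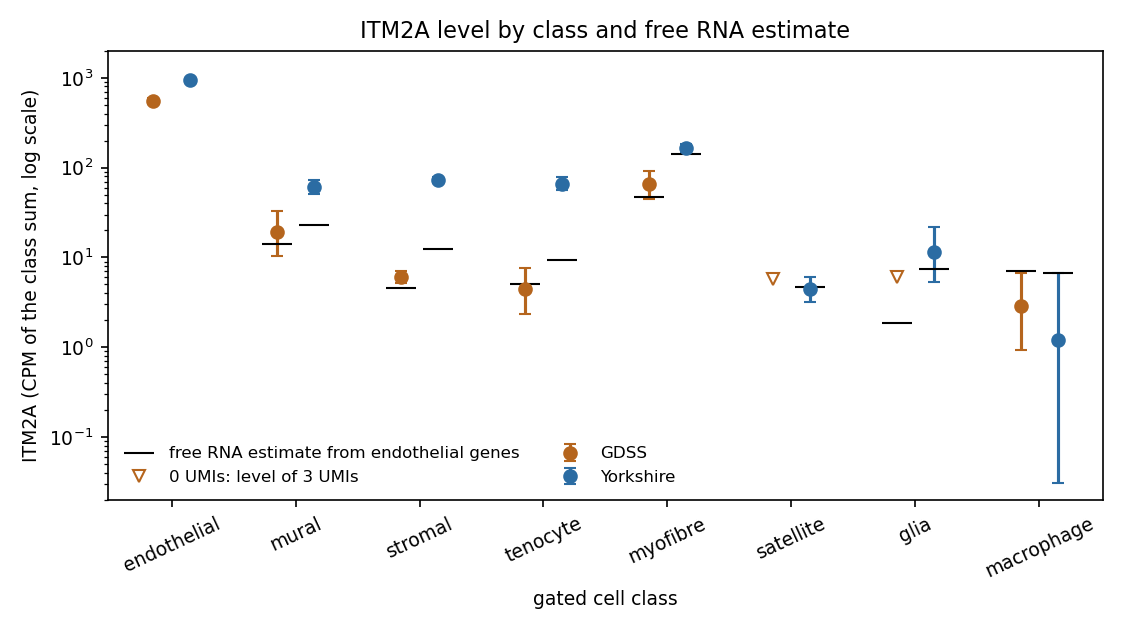
ITM2A level (CPM, log scale) of each class sum in GDSS and Yorkshire with 95% Poisson intervals; black bars are the free RNA estimate from endothelial genes, and open triangles mark the level of 3 UMIs where none was counted. Yorkshire stromal, tenocyte and mural cells lie above their black bar, while GDSS stromal and tenocyte cells lie near it.

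The myofibre class was uncertain. In GDSS its 31 ITM2A UMIs came from 5 cells, 1 of which held 17. In Yorkshire 66.3% of its 273 UMIs came from 10 cells. The free RNA estimates from endothelial genes were 47.2 and 142 CPM, beside the measured 65.2 (44.3 to 92.5) and 164 CPM (145 to 185). Over all foreign markers they were 28.8 and 134 CPM, below both intervals. Endothelial check markers summed to 383 and 452 CPM in these cells, with all 7 detected in each library, and GDSS myofibre cells carried a median of 5 of the 8 stromal gate markers.

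Among stromal cells, the connective tissue cells of muscle that can form fibroblasts and adipocytes, the libraries stood apart. PDGFRA was among their 8 gate markers and was not required of each cell. GDSS had 170 ITM2A UMIs in 8063 cells, or 6.04 CPM (5.16 to 7.02), and Yorkshire 687 UMIs in 2232 cells, or 72.5 CPM (67.2 to 78.2). At equal depth 0.862% (0.666 to 1.10) of GDSS and 8.14% (7.02 to 9.38) of Yorkshire stromal cells carried a UMI, against 1.67% and 16.0% unthinned. The GDSS share lay at the macrophage share of that library and the Yorkshire share above the limit set by macrophages there. Thinning does not make free RNA equal, so the macrophage share is no background for stromal cells. The free RNA estimates over all foreign markers were 1.44 CPM in GDSS and 9.79 CPM in Yorkshire macrophages. For stromal cells they were 6.16 and 40.3 CPM.

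The Yorkshire to GDSS ratio in stromal cells was 12.0 (10.1 to 14.3), or 3.59 on the log2 scale. Of 10091 genes counted there, 18.9% were at least 1.5-fold and 0.823% at least 4-fold higher in Yorkshire, and the median log2 ratio of all of them was 0.18. ITM2A was among the 11 genes with the largest ratios, which is what it was chosen for. Scaled by the trimmed mean of M-values, which removes most of that shift, its log2 ratio was 3.41. The stromal class differed in make-up, with the FMO1/AOX1 state, described further on, at 5.16% of GDSS and 21.8% of Yorkshire stromal cells. With equal weight per state the log2 ratio was 2.71, and with the free RNA estimate from endothelial genes taken off it was 5.36.

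The ratio is set against a GDSS level near background. In GDSS stromal cells the free RNA estimate was 6.16 CPM over 25 foreign markers, inside the measured interval of 5.16 to 7.02 CPM. From endothelial genes it was 4.58 CPM, below that interval. In Yorkshire stromal cells the estimates were 40.3 and 12.4 CPM, both under the measured 72.5 CPM. ITM2A stood there at 38.1% of its library level, while endothelial check markers had a median of 6.54%. In GDSS the corresponding values were 21.5% and 16.3%.

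Endothelial genes were read in the stromal sums as well. The 7 check markers, all detected in both, summed to 285 CPM in GDSS and 229 CPM in Yorkshire, most of it RAMP2, a co-receptor for adrenomedullin, at 276 and 214 CPM. RAMP2 alone of the 7 was lower in Yorkshire, at a ratio of 0.776 (0.739 to 0.815). The ratios of the other check markers ran from 1.43 for ERG to 1.98 for FLT1. Those of VWF, ROBO4 and ERG had intervals that included equal levels. PECAM1, an adhesion molecule of endothelial junctions, was at 31.9 and 32.5 CPM. Of the 15 gate and check markers, 8 had at least 100 UMIs over both sums, and 3 of these were at least 1.5-fold higher in Yorkshire stromal cells, beside 18.9% of all genes. Their median log2 ratio was 0.44. Below 100 UMIs the ratios are less certain. With all 15 markers taken, 9 reached a Yorkshire to GDSS ratio of 1.5, and the median ratio was 1.56. The share of all genes was counted with the minimum of 100 UMIs, so it is no background for these 9. CDH5, the endothelial cadherin, had 0.568 CPM (16 UMIs) and 8.13 CPM (77 UMIs), a ratio of 14.3 (8.27 to 26.3), while the ratios of the other 14 markers lay between 0.722 and 3.75. SEMA3G, a semaphorin of the arterial list and not among the 15 markers, had 0.639 and 12.2 CPM. HEY1 of the same list had 24.8 and 36.5 CPM, a ratio of 1.47 (1.29 to 1.68). The rest of that list is not compared here. The part of endothelial RNA in the stromal ITM2A level was not tested beyond these values and those that follow.

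Restricting the comparison to stromal cells with no UMI of any endothelial gate or check marker left 3793 GDSS and 957 Yorkshire cells. Their ITM2A levels were 4.76 CPM (52 UMIs) and 51.9 CPM (176 UMIs), a ratio of 10.9 (7.96 to 15.2). In stromal cells with at least 1 such marker the levels were 6.85 and 84.0 CPM. A cell with no such UMI at this depth may still hold endothelial RNA.

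Across all cells, ITM2A detection followed the number of the 8 endothelial gate markers seen in the same cell. With 0 markers the share at equal depth was 0.612% in GDSS and 2.18% in Yorkshire. With 2 markers it was 1.18% and 15.3%, with 3 markers 21.4% and 57.7%, and with 4 markers 55.6% and 65.0%. From 4 to 8 markers it ranged from 38.0% to 55.6% in GDSS and from 64.2% to 72.9% in Yorkshire, and within each library the intervals for 4 and 8 markers overlapped.

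**Figure D3:**
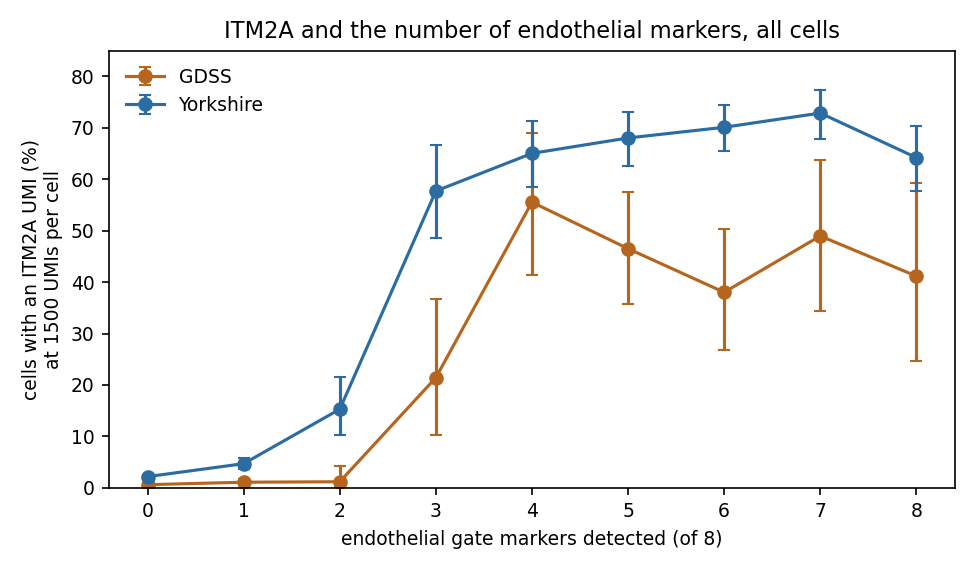
Share of all cells (%) with an ITM2A UMI at 1500 UMIs per cell against the number of endothelial gate markers detected (0 to 8), with 95% Clopper-Pearson intervals. In GDSS the share is 55.6% at 4 markers and 38.0% to 49.0% beyond, and in Yorkshire it is 57.7% at 3 markers, 72.9% at 7 and 64.2% at 8.

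Stromal cells were divided into states by short marker lists. In Yorkshire the highest level was in the state marked by CLDN1, a tight junction claudin, and ITGB4, an integrin of epithelia and nerve sheaths, with ANGPTL7 and GFRA2. Its 98 cells had 254 CPM (214 to 299), and 35.1% (25.6 to 45.4) of them carried a UMI at equal depth. The 46 GDSS cells of this state had 43.9 CPM (20.1 to 83.3) from 9 UMIs, with an interval that overlapped that of the GDSS HHIP/ART4 state. These GDSS cells were under 50, the smallest number for which a ratio was taken.

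The THBS4/KERA state, with genes of dense connective tissue, had 8.05 CPM in 739 GDSS cells and 81.3 CPM in 259 Yorkshire cells. The PI16/CCL26 state, with genes of adventitial fibroblasts, had 5.41 CPM in 1154 and 54.2 CPM in 165 cells. The MME/FMO2 state had 3.09 CPM in 1434 and 35.4 CPM in 263 cells. Their ratios were 10.1 (6.39 to 16.6), 10.0 (6.004 to 17.0) and 11.4 (6.07 to 22.6), with overlapping intervals.

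The FMO1/AOX1 state was closer between the libraries, at 15.2 CPM (9.44 to 23.3) in 416 GDSS cells and 37.1 CPM (29.1 to 46.6) in 486 Yorkshire cells. Its ratio of 2.43 (1.48 to 4.16) did not overlap those of the PI16/CCL26, MME/FMO2 and THBS4/KERA states. The marker genes of this state differed between libraries, here by shares in thinned ITM2A-negative stromal cells of GDSS and Yorkshire. FMO1 was in 2.69% and 18.8%, AOX1 in 0.602% and 4.76%, ADAMTS5 in 15.3% and 23.9%, and VCAM1 in 36.2% and 40.9%. Whether the state held like cells in both libraries was not tested. The 86 GDSS cells of the HHIP/ART4 state had 32.7 CPM, and the 26 Yorkshire cells 96.4 CPM. In the IRF8/PBK state 3 UMIs were counted in 153 GDSS cells and 0 in 4 Yorkshire cells. Cells of no state had 4.62 and 73.9 CPM.

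**Figure D4:**
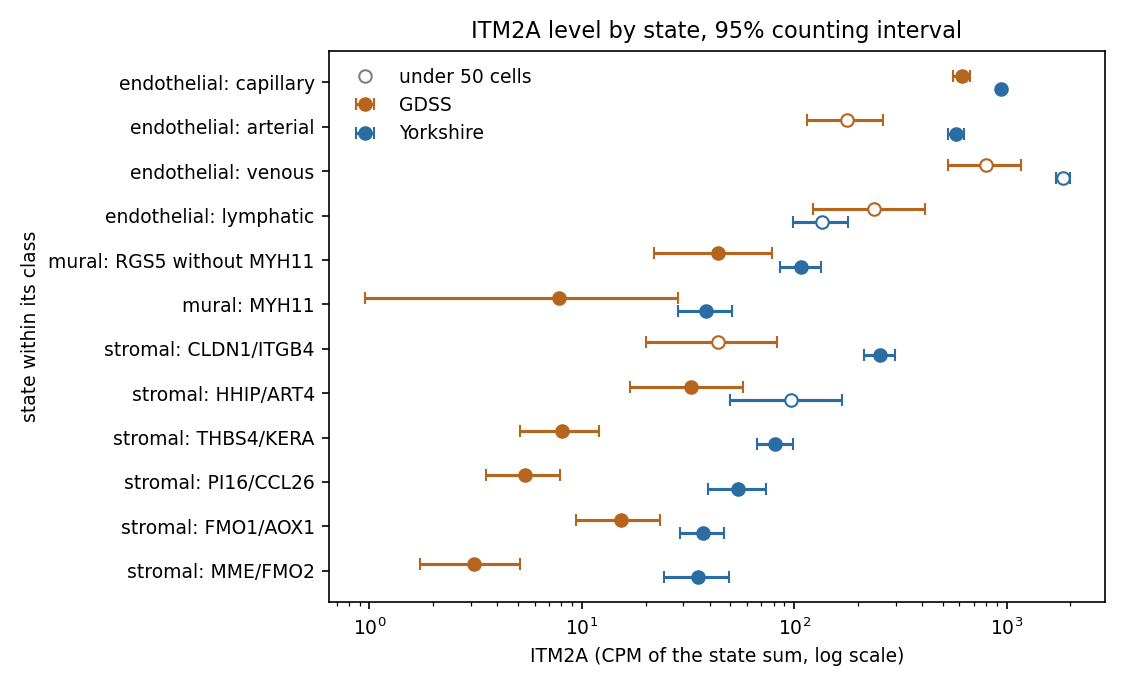
ITM2A level (CPM, log scale) by state within endothelial, mural and stromal cells, with 95% Poisson intervals; open circles mark states of under 50 cells. Capillary, arterial and venous endothelial cells lie above every stromal state in both libraries, while Yorkshire lymphatic cells (135 CPM) lie below the Yorkshire CLDN1/ITGB4 stromal state (254 CPM).

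Tenocytes, the fibroblasts of tendon gated on TNMD and another tendon gene, followed the stromal pattern. GDSS had 13 UMIs in 459 cells, from 5 cells, or 4.41 CPM (2.35 to 7.54), and Yorkshire 150 UMIs in 340 cells, or 66.4 CPM (56.2 to 78.0). The GDSS level was not above its free RNA estimates, which were 4.99 CPM over all foreign markers and 5.08 CPM from endothelial genes, so the ratio of 15.1 (8.55 to 29.0) is set against background. Of the 4458 genes counted in tenocytes, 8.21% were at least 1.5-fold and 0.179% at least 4-fold higher in Yorkshire. Tenocytes without any endothelial marker had 0 UMIs in 336 GDSS cells, which allows 1.53 CPM, and 66.6 CPM in 242 Yorkshire cells. The Yorkshire free RNA estimates were 10.2 and 9.32 CPM.

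Mural cells, which wrap vessels as pericytes or smooth muscle, had 19.4 CPM (10.3 to 33.1) from 13 UMIs in GDSS and 61.0 CPM (51.3 to 72.0) from 139 UMIs in Yorkshire. The ratio was 3.15 (1.78 to 6.07). Of 3936 genes counted in mural cells, 15.8% were at least 1.5-fold and 0.305% at least 4-fold higher in Yorkshire, with 27 at or above the ratio of ITM2A. The free RNA estimates from endothelial genes were 14.2 and 22.8 CPM, inside the GDSS interval and below the Yorkshire interval. Over all foreign markers they were 6.21 and 24.3 CPM, below both intervals.

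Within mural cells, those with RGS5, a pericyte gene, and no MYH11 had 43.9 CPM in GDSS and 108 CPM in Yorkshire. Cells with MYH11, the smooth muscle myosin, had 7.83 and 38.4 CPM. Endothelial check markers were also higher in the RGS5 cells, at 207 and 119 CPM, than in the MYH11 cells, at 27.4 and 45.4 CPM. Between libraries these markers were lower in the Yorkshire RGS5 cells, where ITM2A was higher. The part of endothelial RNA in the mural ITM2A level was not tested. Mural cells with no endothelial marker had 1 UMI in 150 GDSS cells and 50.5 CPM in 338 Yorkshire cells.

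In endothelial cells the ratio between libraries was smaller than in stromal cells, with intervals apart. The Yorkshire to GDSS ratio was 1.71 (1.58 to 1.85), or 0.78 on the log2 scale, against a median log2 ratio of 0.05 over 6935 genes. Of these genes, 14.2% were at least 1.5-fold and 0.433% at least 4-fold higher in Yorkshire, and 572 had a ratio at or above that of ITM2A. Mural gate markers summed to 886 CPM in GDSS and 282 CPM in Yorkshire endothelial cells, and stromal gate markers to 370 and 156 CPM. Endothelial gate markers summed to 4351 and 5430 CPM, and endothelial check markers to 2815 and 2912 CPM. At the limit of the gate lay 20.2% and 10.1% of the cells. The part of this difference in gating in the ratio was not tested. In capillary cells, gated on CA4, RGCC, FABP4 and CD36, the levels were 616 CPM in 208 GDSS and 943 CPM in 1367 Yorkshire cells, a ratio of 1.53 (1.39 to 1.69).

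The endothelial states differed in Yorkshire. Venous cells, with the chemokine receptor gene ACKR1 and SELP, had 1844 CPM (1716 to 1979) in 40 cells. Arterial cells, with GJA5 and SEMA3G, had 580 CPM (532 to 632) in 73 cells. Lymphatic cells, with PROX1 and CCL21, had 135 CPM (98.9 to 180) in 44 cells. Venous, capillary, arterial and lymphatic cells thus came in this order with intervals apart. At equal depth the shares were 87.5%, 72.3%, 54.4% and 18.6%. In GDSS the venous, arterial and lymphatic states held 2, 10 and 10 cells, too few to order.

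Satellite cells, the stem cells of muscle fibres, carried little ITM2A. GDSS had 0 UMIs in 172 cells, which allows 5.80 CPM, and Yorkshire 40 UMIs in 2391 cells, or 4.49 CPM (3.21 to 6.12). At equal depth the share was 0 of 157 cells in GDSS and 0.592% (0.324 to 0.992) in Yorkshire, below the limit of 3.26% set by macrophages. The Yorkshire free RNA estimates were 19.0 CPM over all foreign markers and 4.73 CPM from endothelial genes, so no level above background was detectable. No fold was taken, since both levels were at or under the floor or the free RNA estimate.

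Satellite states did not stand out. In Yorkshire the cells with PAX7 and no MYOD1 had 5.91 CPM (2.70 to 11.2), those with at least 2 MYOD1 UMIs 3.17 CPM (0.383 to 11.4) and those with ANKRD1 or POPDC3 4.67 CPM (2.33 to 8.36). The 21 Yorkshire cells with MYOG or MYMK, genes of fusing myoblasts, and the 36 cycling satellite cells had 0 UMIs. No GDSS satellite state had a UMI. The satellite class was the least firmly gated with glia, since 64.0% of GDSS and 59.0% of Yorkshire satellite cells lay at the limit of the gate.

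Glial cells, the Schwann cells of muscle nerves, had 0 UMIs in 200 GDSS cells, which allows 6.07 CPM, and 9 UMIs in 254 Yorkshire cells, or 11.6 CPM (5.29 to 22.0). The Yorkshire free RNA estimates were 9.69 and 7.41 CPM, inside that interval. Macrophages had 5 UMIs in 238 GDSS cells, or 2.84 CPM (0.923 to 6.63), and 1 UMI in 92 Yorkshire cells. T cells, in which ITM2A has been studied, could not be described: 5 GDSS cells and 1 Yorkshire cell met the lymphocyte gate.

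The paralogues were distributed differently. ITM2B, whose product is the precursor of a secreted peptide linked to amyloid disease, was found in every class, from 972 CPM in tenocytes to 2915 CPM in stromal cells in GDSS and from 525 to 1934 CPM in the same classes in Yorkshire. Its Yorkshire to GDSS ratio in stromal cells was 0.663 (0.653 to 0.674). ITM2C, the other paralogue, was lowest in endothelial and satellite cells, at 23.9 and 25.2 CPM in GDSS and 26.8 and 25.04 CPM in Yorkshire. It was highest in tenocytes, at 323 and 188 CPM, and in macrophages, at 284 and 172 CPM.

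Of the BRICHOS genes beyond the family, TNMD, the tendon membrane protein tenomodulin, stood at 2548 and 1299 CPM in tenocytes, for which it is a gate gene. CNMD, its cartilage relative chondromodulin, was found in glial cells, with 4 UMIs (8.09 CPM) in GDSS and 52 UMIs (66.8 CPM) in Yorkshire, and had 0 UMIs in endothelial cells. SFTPC, GKN1, GKN2 and BRICD5 were at or near 0 in all classes. In stromal cells 4 of the 9 listed genes could be compared, and their median log2 ratio was −0.27, beside 0.18 over all genes. ITM2A, chosen for its ratio, was the member at least 1.5-fold higher in Yorkshire, and ITM2B the member at least 1.5-fold lower, as were 5.69% of all genes.

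**Figure D5:**
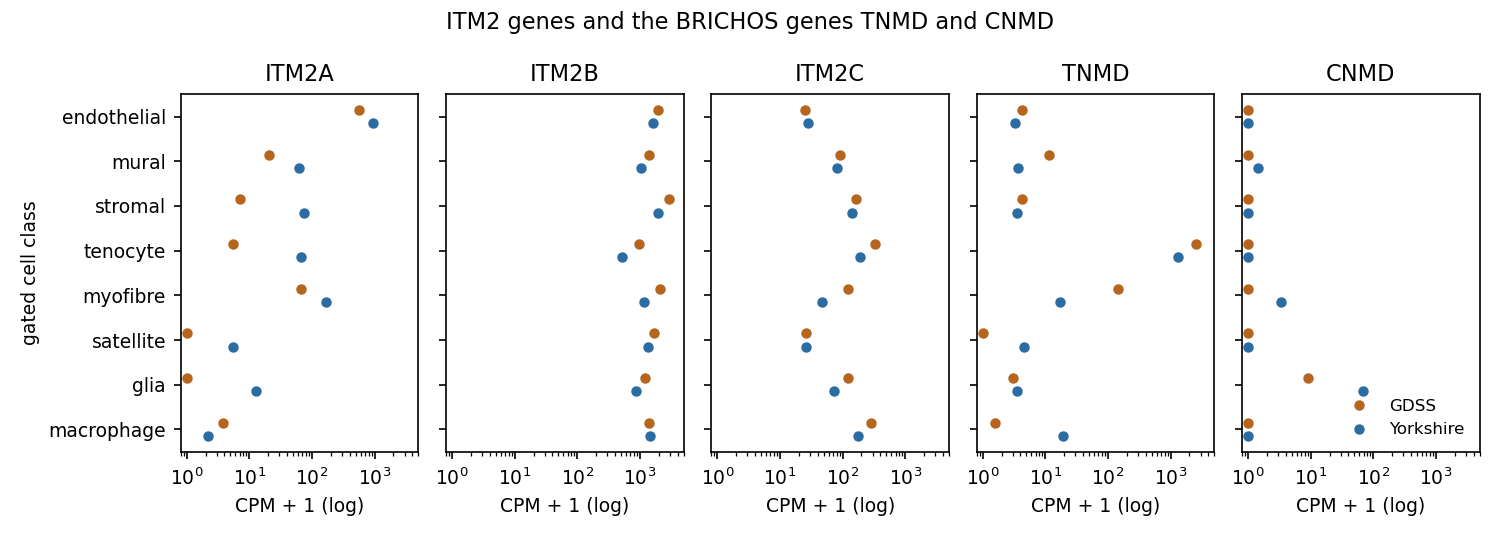
Levels (CPM + 1, log scale) of ITM2A, ITM2B, ITM2C, TNMD and CNMD in each gated class of GDSS and Yorkshire; genes are not compared in level with each other because their lengths differ. ITM2A is highest in endothelial cells, where ITM2C is at 23.9 and 26.8 CPM.

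Enzymes linked to the processing of the ITM2B product, here called BRI processing, and genes linked to ITM2A in other cells were listed by role. Of the BRI processing enzymes FURIN, ADAM10, SPPL2A, SPPL2B and BACE1, all 5 could be compared in stromal cells, and ADAM10, a membrane metalloprotease, was the only one at least 1.5-fold higher in Yorkshire, at 1.94-fold (1.68 to 2.23). That is 1 of 5 members, near the 18.9% of all genes. The median log2 ratio of the 5 was 0.28. In endothelial cells 3 could be compared, ADAM10 at 1.57-fold (1.27 to 1.95) being the only one past that fold, beside 14.2% of all genes, and the median log2 ratio was 0.22.

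Of the listed regulators, GATA3, a T cell transcription factor, had 24.8 CPM in GDSS endothelial cells and 45.1 CPM in those of Yorkshire, a ratio of 1.82 (1.25 to 2.74). CREB1, which carries cAMP signals to DNA, stood at 28.9 and 44.7 CPM there, a ratio of 1.55 (1.09 to 2.26). Only these 2 listed regulators could be compared in endothelial cells, from 30 and 35 GDSS UMIs. Both were at least 1.5-fold higher in Yorkshire, beside 14.2% of all genes, and a link to the ITM2A level was not tested. Both were under 1.5-fold apart in stromal cells, where GATA3 was at 4.83 and 3.48 CPM. PAX3 was barely detected, with 0 CPM in GDSS and 2.92 CPM in Yorkshire satellite cells.

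Among 16 myogenic genes, 9 could be compared in stromal cells and Yorkshire was at least 1.5-fold higher for 5, beside 18.9% of all genes; the 9 had a median log2 ratio of 0.73. These were the satellite cell factors MYOD1 at 7.35-fold, MYF5 at 4.24-fold and PAX7 at 3.67-fold, with HEYL at 2.08-fold and SIX4 at 1.66-fold. MYF5 stood at 15.8 and 66.9 CPM in stromal cells and at 1327 and 997 CPM in satellite cells. Satellite cells were also the more common in Yorkshire, and their part in these stromal ratios was not tested. In endothelial cells 5 could be compared, and 2 had a ratio at least 1.5-fold lower in Yorkshire, as did 8.36% of all genes. These were MYF5, at 0.461 (0.370 to 0.579) of GDSS, and MYOD1, at 0.650 (0.402 to 1.10), whose interval includes equal levels.

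The genes whose pattern over classes was most like that of ITM2A were sought among 8257 genes, by the lower of the Pearson correlations of log2(CPM + 1) over 8 classes in each library. The classes of a library share its free RNA and depth, so these are descriptions. TMEM204, an endothelial junction protein, came first at 0.917, followed by the flavin monooxygenase FMO1 at 0.901, the water channel AQP1 at 0.900, the transcription factor ERG at 0.898 and the adhesion receptor ADGRL4 at 0.896. SOX18, STC1, ISG12(A), CYYR1 and PHACTR2 followed at 0.893 to 0.887. ITM2B, at 0.381 in GDSS and 0.069 in Yorkshire, and ITM2C, at −0.31 and −0.30, were not among them.

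Of the 10 genes, FMO1 also shared the difference between libraries in stromal cells, with 19.4 CPM in GDSS against 187 CPM in Yorkshire, beside 285 and 650 CPM in endothelial cells. Among the other 9, CYYR1 had 4.08 and 6.02 CPM in stromal cells and ERG 0.959 and 1.37 CPM. PHACTR2, at 60.6 and 103 CPM, and ISG12(A), at 38.6 and 60.4 CPM, were above FMO1 in GDSS stromal cells and below it in those of Yorkshire. FMO1 is also a marker of the stromal state in which the ITM2A ratio was smallest among those given.

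Genes found in the same stromal cells as ITM2A were compared between 65 positive and 7473 negative GDSS cells and between 175 positive and 1974 negative Yorkshire cells, all thinned. Their median depths before thinning were 3409 and 3120 UMIs in GDSS and 3847 and 3745 UMIs in Yorkshire. The gene with the largest excess in both libraries was CLEC1A, a C-type lectin receptor, in 7.69% against 0.348% of GDSS cells and 9.14% against 1.11% of Yorkshire cells. NR2F2, a nuclear receptor of veins and mesenchyme, was in 16.9% against 2.66% and 21.7% against 5.88%. CDH11, the mesenchymal cadherin, was in 12.3% against 2.96% and 18.3% against 5.37%.

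CDC25C, a phosphatase of mitotic entry, was in 9.23% against 1.27% of GDSS and 15.4% against 2.68% of Yorkshire stromal cells. DUSP4, CRABP2, PLTP and SHISA3 completed the 8 genes, which were chosen by rank for this same difference from 2487 genes. Their intervals were apart for all 8 in Yorkshire and for all but CRABP2 and PLTP in GDSS. The ranking favours such gaps, so they support nothing further. The genes ranked for the lowest shares in positive cells, from 2724, were PXK, AGFG1, RETREG1, ENPEP and NT5E. PXK was in 0 of 65 against 5.53% of GDSS cells and in 1.14% against 6.23% of Yorkshire cells, with intervals apart in Yorkshire only.

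Of the 4 markers of the CLDN1/ITGB4 state, ANGPTL7 and GFRA2 in GDSS and CLDN1, ITGB4 and GFRA2 in Yorkshire had higher shares in ITM2A-positive than in negative stromal cells, with intervals apart. CLDN1 was in 15.4% (7.63 to 26.5) against 7.45% (6.87 to 8.07) of GDSS cells, with overlapping intervals, and in 28.6% (22.0 to 35.9) against 7.29% (6.19 to 8.53) of Yorkshire cells. GFRA2, a receptor of the neurotrophic factor neurturin, was in 4.62% against 0.254% and 10.3% against 1.57%. Of the 4 markers of the HHIP/ART4 state, HHIP, ART4 and SFRP4 in GDSS and SFRP4 in Yorkshire were apart in the same way. SFRP4, a secreted inhibitor of Wnt signalling, was in 7.69% against 1.82% and 14.9% against 4.61%. In Yorkshire THBS4 and KERA of the THBS4/KERA list and PI16 of the PI16/CCL26 list had higher shares too, with intervals apart. In GDSS no marker of these lists did, and POSTN and FBLN2 of the same lists had lower shares with intervals apart. COL15A1, a basement membrane collagen of the MME/FMO2 list, had lower shares with intervals apart in both libraries, in 30.8% against 48.1% and 20% against 33.6%. VCAM1 of the FMO1/AOX1 list was lower in the same way in Yorkshire only. The share of all genes with intervals apart was not counted beside these.

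The 15 endothelial markers were compared in the same stromal cells. In GDSS 4 of them, PECAM1, EGFL7, CLDN5 and ESAM, had higher shares in ITM2A-positive cells with intervals apart, and 7 were in 0 of the 65 positive cells, among them CDH5 and VWF. In Yorkshire SOX18 alone was apart, in 4% (1.62 to 8.07) against 0.557% (0.278 to 0.995). PECAM1 was in 15.4% (7.63 to 26.5) against 4.202% (3.76 to 4.68) of GDSS cells and in 6.29% (3.18 to 11.0) against 4.26% (3.41 to 5.24) of Yorkshire cells. The share of all genes with intervals apart was not counted, so these marker counts have no background beside them. Whether the libraries differ in this respect was not tested.

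In endothelial cells, 107 positive and 101 negative GDSS cells and 1077 positive and 449 negative Yorkshire cells were compared. The genes were chosen by rank for this difference, from 2530 that could be ranked for an excess in positive cells. ACKR1 was in 9.35% (4.57 to 16.5) of positive against 4.95% (1.63 to 11.2) of negative GDSS cells, with overlapping intervals, and in 8.08% (6.52 to 9.87) against 3.79% (2.22 to 5.99) of Yorkshire cells, with intervals apart. The others were PLEKHF2, SHE, CHMP1A, POLE3, PEX16, FGFR1 and DGKH; none of the 8 was apart in GDSS, and ACKR1, PLEKHF2 and CHMP1A were in Yorkshire. The genes ranked for the lowest shares in positive cells, from 2446, included the lymphatic genes LYVE1 and MMRN1. LYVE1, a hyaluronan receptor, was in 0 (up to 3.39) against 5.94% (2.21 to 12.5) of GDSS cells and in 0.743% (0.321 to 1.46) against 5.57% (3.64 to 8.11) of Yorkshire cells. MMRN1 was in 1.87% against 5.94% and 0.836% against 6.46%. TMEM52, EMP3 and HOMER1 were the others. All 5 were apart in Yorkshire, and EMP3 alone in GDSS. The ranking favours gaps for both groups of genes, and the share of all genes with intervals apart was not counted. The gaps of these endothelial genes therefore support nothing further. With 0 GDSS and 14 Yorkshire positive cells, satellite cells were too few for this comparison.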

How the data were processed

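Droplet single-cell libraries of 2 pig breeds, 1 library each, were used. The authors deposited raw UMI counts per gene and barcode. Per the submitters' processing notes Cell Ranger was used, and R 3.5.2 is named there without a role; the file headers give software version 3.1.0. Genome build and annotation: not given in the sources used here. Every deposited barcode had at least 500 UMIs. Of 21301 features, 14846 carried a symbol and 680 received one from a table of Ensembl identifiers.

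Cells with at least 500 genes, at most 10% mitochondrial UMIs and a scrublet score under 0.3 were kept. The score removed 0.610% of GDSS and 1.54% of Yorkshire barcodes; the automatic threshold marked 0% in both, was taken to have failed and was not used. A cell joined the class with the most of up to 8 gate markers detected, at least 3 and at least 2 more than the next class. Tenocytes needed TNMD and another tendon gene, and myofibre cells at least 6 markers, so a cell with fibre RNA could leave its own class. S100B and GFRA3 of the glial gate, and RAPSN of the satellite check list, are not in the feature list used. States needed at least 2 markers and more than any other list, or were set by single genes after thinning.

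UMIs were summed per class and library. Levels carry exact Poisson intervals, ratios exact conditional binomial intervals and shares Clopper-Pearson intervals, all at 95% and for counting error only. A count of 0 allows up to 3 counts. Counts over all genes and over lists took genes with at least 100 UMIs in both sums together; ratios of single genes and states had no such minimum. Named genes were ITM2A, the fixed lists, the 10 genes most like it in pattern (at least 200 UMIs in each library), and in each class the 8 genes most and 5 least often detected with it, found in at least 5% of positive or negative cells. The gene, lists, gates and score limit were chosen with earlier results of these data known.

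As alternatives, gates were loosened (2 markers, lead 1) or tightened (4 and 3), and cells were clustered without ITM2A by the Leiden method (2000 variable genes, 30 components, 15 neighbours, resolution 1). Filters, depth, weighting, free RNA and scaling (TMM, the trimmed mean of M-values, from edgeR 4.0.16 in R 4.3.3, and median-of-ratios factors) were also varied. Ratios, intervals and thinning were also run on counts simulated from the stromal sums with counting error only. Python 3.11.15, scanpy 1.11.5, numpy 2.4.6, scipy 1.17.1, pandas 2.3.3, igraph 0.11.9 and matplotlib 3.10.9 were used.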

Additional observations from a re-analysis of the deposited data

How the results depend on the processing

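The log2 ratio of Yorkshire over GDSS in stromal cells, 3.59, stayed positive under all 13 alternatives run, and 9 lay within its counting interval. It was 3.31 with the looser gate and 4.13 with clusters in place of gates. It was 2.71 with equal weight per state, without the cells of no state and states of under 50 cells in either library. It was 5.36 after the free RNA estimate from endothelial markers was taken off, an alternative chosen after seeing the data, as were leaving out cells with an endothelial marker, leaving out the CLDN1/ITGB4 state, and using capillary cells alone. The planned subtraction of free RNA over all foreign markers could not be given for stromal cells, because the GDSS level was under its estimate. In endothelial cells the log2 ratio, 0.78, was 0.97 with the looser and 0.66 with the stricter gate, 0.90 in cells with at least 1000 genes, 0.63 with each cell weighted equally and 0.61 in capillary cells; the other 6 of 11 alternatives lay within the interval. The cause was not tested for any of these.

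Shares of cells moved with depth by construction. Thinned to 1000 UMIs, thinned to 2500 UMIs and not thinned, they were 0.613%, 1.38% and 1.67% for GDSS stromal cells and 5.81%, 12.4% and 16.0% for Yorkshire stromal cells. In the same order they were 41.6%, 64.3% and 75.2% for GDSS endothelial cells and 59.4%, 83.2% and 87.9% for Yorkshire endothelial cells. The Yorkshire stromal share was also 6.77% with the looser gate, 12.9% with clusters and 9.52% at a mitochondrial maximum of 5%. The 1903 genes at least 1.5-fold higher in Yorkshire stromal cells became 822 with at least 500 UMIs, where fewer genes were counted, and 1137 with TMM factors.

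The satellite ratio had no value under the gate used, with 0 GDSS UMIs. It was 0.706 (0.307 to 1.99) with the looser gate and 3.09 (1.18 to 11.5) with clusters, from 6 and 4 GDSS UMIs, and equal weight per state could not be run there because the GDSS states held under 50 cells. No paired analysis was possible because each breed had 1 library. Depth limits all classes but endothelial and stromal cells, whose ITM2A counts were between 0 and 273 UMIs.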

Other observations

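Cells that met no gate held 19.3% of the ITM2A UMIs of the GDSS library and 5.75% of those of the Yorkshire library. Their level was 56.0 CPM (48.8 to 63.9) in 1281 GDSS cells and 33.1 CPM (30.4 to 35.9) in 5563 Yorkshire cells. In GDSS, 216 of these 218 UMIs lay in the 351 ungated cells with an endothelial gate or check marker, at 117 CPM.

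Summed over all cells, the ITM2A level was 28.1 CPM in the GDSS library. It was 190 CPM in the Yorkshire library, 6.78-fold (6.37 to 7.21) higher. With the class levels of GDSS put into the class mixture of Yorkshire the level was 113 CPM, and with the class levels of Yorkshire put into the mixture of GDSS it was 91.0 CPM.

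The genes next to ITM2A in the RefSeq order of the pig assembly Sscrofa11.1, used for names only, were measured as well. LPAR4, P2RY10 and GPR174 on one side had at most 27 UMIs in either library, and TBX22 on the other had 0 in both. BRWD3, farther on that side, had 23.1 CPM in GDSS endothelial cells and 31.9 CPM in those of Yorkshire, and 14.5 and 21.7 CPM in stromal cells, where its ratio was 1.504 (1.27 to 1.78). ITM2A is known as an X-linked gene in other mammals, and the Y-linked names EIF1AY and KDM5D were detected in both libraries, at 32.0 and 38.3 CPM and at 4.11 and 3.14 CPM over all cells. XIST, DDX3Y, UTY, USP9Y and EIF2S3Y are not in the feature list used.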
